A study of Homo sapiens with 4 samples.

Results

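The pro-apoptotic genes of the BCL2 family were followed on 4 Affymetrix expression arrays of Panc1 cells, an established line from a human pancreatic carcinoma. The members were 10 genes given by symbol: the pore-forming effectors BAX and BAK1, and the BH3-only genes BCL2L11 (BIM), BID, BMF, BIK, PMAIP1 (NOXA), BAD, HRK and BBC3 (PUMA). A probe set counted for a member if the platform annotation gave it that gene and no other. By this rule 9 of the 10 members were found, with 25 probe sets out of 41091 that name 1 gene, and 9 of 19775 genes. BBC3 had no such probe set and was not analysed here. The 4 samples were cells given romidepsin plus tamoxifen, cells given romidepsin, cells given tamoxifen and untreated cells, 1 array each, with the drugs given for 24 hours. Romidepsin inhibits histone deacetylases, and tamoxifen binds the estrogen receptor and modulates it selectively. No dose is stated in the labels, and all samples came from 1 cell line grown in the same medium.

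Proteins of the BCL2 family decide whether the outer membrane of the mitochondrion is opened, the step that releases cytochrome c and starts the caspases. BAX and BAK1 make the pore, anti-apoptotic members such as BCL-XL and MCL1 hold it shut, and BH3-only proteins either bind the effectors directly, as BIM and BID can, or occupy the anti-apoptotic proteins, as BAD, BMF, BIK, NOXA and HRK do. Many BH3-only genes are controlled at the level of transcription, while BID and BAD are also switched on after translation, by cleavage and by loss of phosphate.

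There were no replicates, so that no test was made, no p-value is given and each fold describes 1 array against another. Signals are linear MAS5 intensities, and a floor of 66.4, the median of all signals, replaced any lower value on the way to log2. Where 1 of the arrays was at the floor the fold is a bound and carries the words at least. Rose and fell are used for differences of 2-fold or more. The spread that could be had was technical: 2 probe sets of the same gene differed in log2 fold by a median of 0.223 to 0.295 in the 5 comparisons. An array signal is a share of the labelled RNA, so fewer cells and less RNA per cell cannot be told apart. Of 5 markers of a ductal carcinoma line 4 (KRT7, KRT8, KRT18 and VIM) were above the floor on all 4 arrays and KRT19 on none. Of 8 markers of other cell types with a probe set only PECAM1 was above it, at 110 to 136. The actin control, whose 3′ over 5′ signal reports on RNA integrity, had a ratio of 1.73 with the combination, 1.18 with romidepsin, 1.39 with tamoxifen and 1.21 in untreated cells. The same ratio for the GAPDH control was 1.07, 1.03, 1.04 and 1.07 in that order. The brightest probe sets of BAX, PMAIP1, BID and BAD had their lowest signals on the combination array, and the part of RNA integrity in this was not tested. The second PMAIP1 set was lowest in untreated cells, at 895, and the second BAD set above the floor was lowest with tamoxifen, at 425.

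Romidepsin was accompanied by changes of BH3-only genes in both directions and by no 2-fold change of either effector. BIK, BMF and BCL2L11 rose, and BID fell. Thus 3 of 9 measured members rose and 1 fell, against 14.3% of all 13619 measured genes that rose and 9.27% that fell. The members' median log2 fold was 0.33, beside 0.058 for all genes, and it is the fold of the brightest BAD set. With the combination the same 3 members were higher than in untreated cells and BID was lower, against 19.8% of 13802 genes that rose and 14.4% that fell. Here the members' median was -0.15, beside 0.089 for all genes. With tamoxifen BMF alone rose and none of the 8 measured members fell, against 3.7% of 13051 genes that rose and 1.07% that fell, and the median was 0.014 for members and 0.01 for all genes. With each array centred on its median, BCL2L11 did not pass 2-fold with romidepsin, BAX fell with the combination, and the shares of all genes that rose and fell were 11.4% and 12.7% with romidepsin, 2.21% and 2.39% with tamoxifen and 14.7% and 20.9% with the combination. BIK, BMF and HRK were below the floor in untreated cells, at 19.95, 51.8 and 46.8. They count as measured because a treated array was above the floor, so they could only be higher. Of the 6 members above the floor on all 4 arrays, as deposited, BCL2L11 alone rose and BID alone fell with romidepsin and with the combination. Few members were measured, and these counts are a description.

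**Figure D1:**
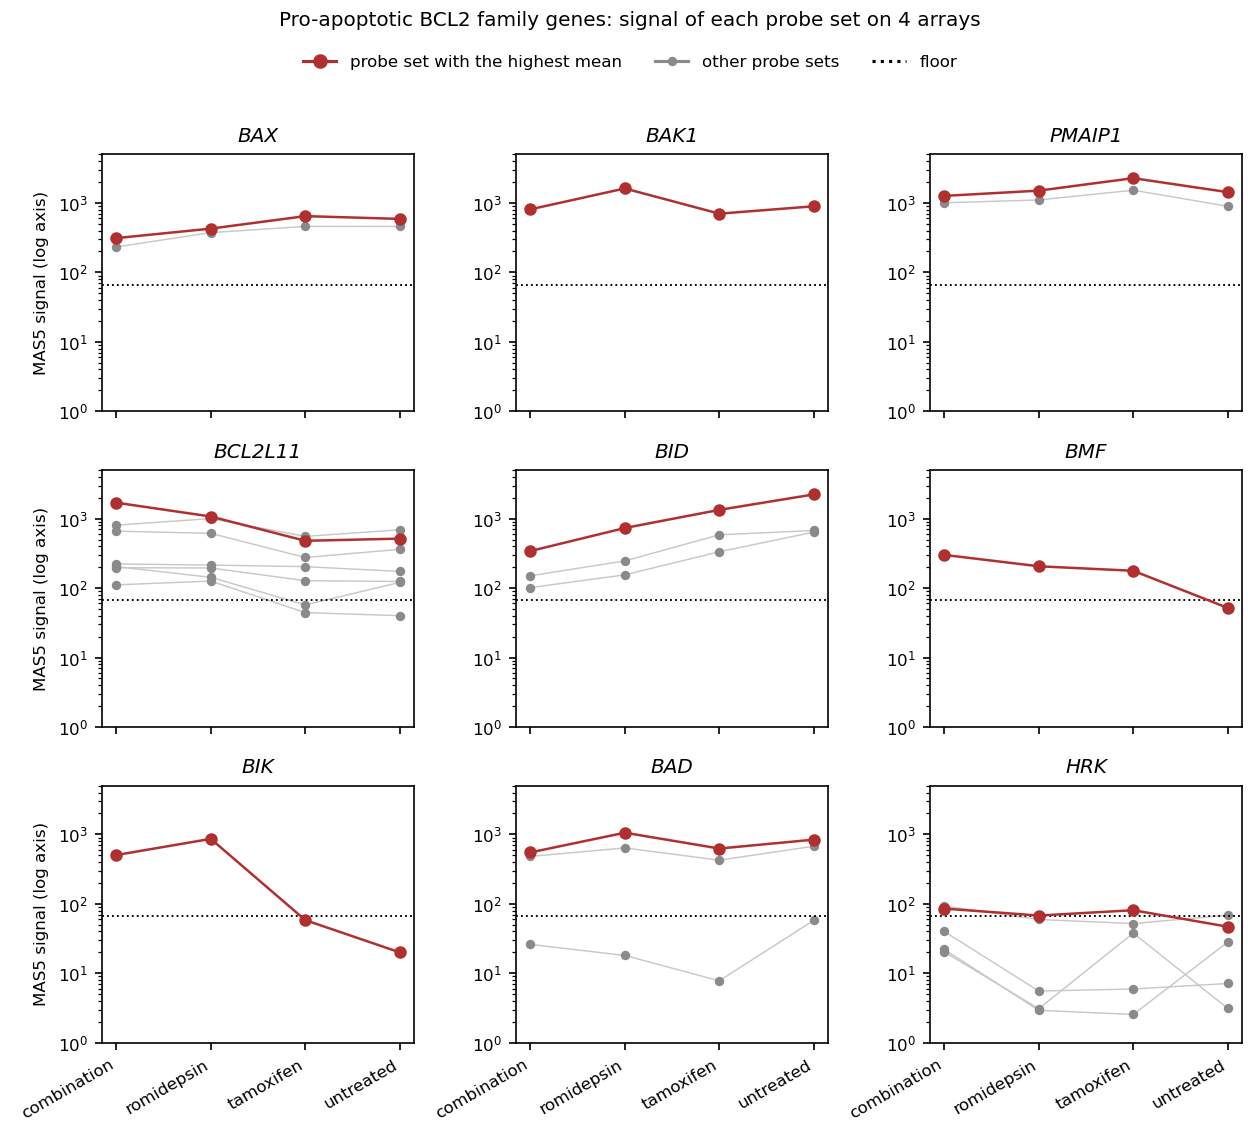
MAS5 signal (log axis) of every probe set of the 9 members on the combination, romidepsin, tamoxifen and untreated arrays. Red marks the probe set with the highest mean, grey the others, and the dotted line the floor of 66.4. BID was lowest on the combination array at 341 and highest on the untreated array at 2233, BIK reached 861 with romidepsin, and HRK stayed near the floor.

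Of the effectors, BAX had a signal of 311 with the combination, 427 with romidepsin, 646 with tamoxifen and 589 in untreated cells. The order was combination, romidepsin, untreated and tamoxifen from low to high, and tamoxifen over untreated cells was a log2 fold of only 0.13, within the spread between probe sets. BAX was 1.89-fold lower with the combination than in untreated cells, which does not reach 2-fold, and 2.07-fold lower than with tamoxifen, which does. A second BAX probe set gave 232, 374, 459 and 459 on the same 4 arrays, and its log2 fold of -0.98 in the combination over tamoxifen lay just short of the threshold. Both BAX probe sets carry the suffix of sets that can match several transcripts. BAK1, the other effector, had its highest signal with romidepsin: 808 with the combination, 1616 with romidepsin, 701 with tamoxifen and 895 in untreated cells. It was 1.81-fold higher with romidepsin than in untreated cells, under the threshold. With tamoxifen added to romidepsin BAK1 was 2.0-fold lower, at the threshold itself, and only 1 probe set measures it. The combination and untreated arrays differed by a log2 fold of -0.15 for BAK1, less than the spread between probe sets.

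BCL2L11 encodes BIM, which can bind both the anti-apoptotic proteins and the effectors. Its brightest probe set read 1698 with the combination, 1073 with romidepsin, 479.6 with tamoxifen and 516 in untreated cells. It rose 2.08-fold with romidepsin and 3.29-fold with the combination, and with tamoxifen it was 1.08-fold lower. The combination array was the highest, 1.58-fold above romidepsin alone, and on this set the tamoxifen and untreated arrays did not differ beyond the spread. The 5 sets above the floor on both of those arrays lay between -0.39 and 0.23, 2 positive and 3 negative. The size of the rise depended on the probe set. BCL2L11 had 7, and all 6 that were above the floor on both arrays were higher with romidepsin than in untreated cells, with log2 folds between 0.24 and 1.06, and also higher with the combination, between 0.22 and 1.72. In both comparisons the brightest set alone passed 2-fold. The next brightest set read 806 with the combination, 1002 with romidepsin, 556 with tamoxifen and 690 in untreated cells, so that romidepsin alone and not the combination was its highest array. For the combination over romidepsin, 5 of the 7 sets were positive and 2 negative, between -0.31 and 0.66. BIM is made as several splice forms, and which of them each probe set reads was not analysed here.

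BID encodes a BH3-only protein that caspase 8 cleaves to its active form, which links death receptors to mitochondria. Its signal was 341 with the combination, 733 with romidepsin, 1338 with tamoxifen and 2233 in untreated cells. Each treated array was lower than the untreated one, and the combination array was lower than that of either drug. BID fell 3.05-fold with romidepsin and 6.55-fold with the combination. With tamoxifen alone it was 1.67-fold lower, under the threshold. The combination was 2.15-fold lower than romidepsin alone and 3.92-fold lower than tamoxifen alone. All 3 BID probe sets fell at least 2-fold with romidepsin (log2 folds between -2.05 and -1.46) and with the combination (between -2.71 and -2.17). All 3 were also negative with tamoxifen, between -0.94 and -0.21. For the combination over romidepsin 1 of the 3 passed 2-fold. Only 149 of 13802 genes had a lower log2 fold than BID in the combination over untreated cells. Its log2 fold was negative in all 5 comparisons on all 3 probe sets.

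BMF, a BH3-only gene whose product is held on the cytoskeleton through a dynein light chain, was at the floor used the one member that rose with each drug. With the floor at the 25th percentile BIK did so too. Its single probe set read 301 with the combination, 206 with romidepsin, 178 with tamoxifen and 51.8 in untreated cells, the last below the floor. The 3 treated arrays were all above the untreated one. BMF rose at least 3.1-fold with romidepsin, at least 2.67-fold with tamoxifen and at least 4.53-fold with the combination. The bound with tamoxifen moved with the floor, from a log2 fold of 1.42 here to 1.78 with the floor at the 25th percentile. The combination was 1.46-fold above romidepsin alone and 1.69-fold above tamoxifen alone, both under the threshold. BMF is dim: on all 4 arrays it stayed below 408.5, the 75th percentile of all signals.

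BIK encodes a BH3-only protein of the endoplasmic reticulum and, at the floor used, had the largest fold of the members. Its single probe set read 503 with the combination, 861 with romidepsin, 58.2 with tamoxifen and 19.95 in untreated cells. Both arrays with romidepsin lay far above both arrays without it, which were below the floor. BIK rose at least 13-fold with romidepsin and at least 7.59-fold with the combination, relative to untreated cells and to tamoxifen alike. In romidepsin over untreated cells 68 of 13619 genes had a larger fold. The combination was 1.71-fold lower than romidepsin alone. Signals below the floor have no order, so tamoxifen alone and untreated cells are not compared for BIK.

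NOXA, the product of PMAIP1, neutralizes MCL1 and is known as a target of p53 and of stress-induced transcription factors. PMAIP1 read 1263 with the combination, 1503 with romidepsin, 2273 with tamoxifen and 1429.8 in untreated cells. It was highest with tamoxifen alone, 1.59-fold above untreated cells, and the combination was 1.8-fold below tamoxifen. Neither passed 2-fold, and among the other 3 arrays the widest gap was that of the combination over romidepsin, a log2 fold of -0.25. Its second probe set gave log2 folds of 0.77 with tamoxifen and -0.60 in the combination over tamoxifen, beside 0.67 and -0.85. BAD, which growth factor signalling keeps phosphorylated and inactive, read 549 with the combination, 1056 with romidepsin, 625 with tamoxifen and 839 in untreated cells. No comparison of BAD passed 2-fold as deposited, but with arrays centred or quantile normalized the combination over romidepsin did, at log2 folds of -1.05 and -1.01. The combination was 1.92-fold lower than romidepsin, while the second usable BAD set gave a log2 fold of -0.41 where the first gave -0.94, and those sets had opposite signs for romidepsin over untreated cells. The third BAD probe set was under the floor on all 4 arrays. HRK, a BH3-only gene best known from neurons, read 85.3 with the combination, 67.7 with romidepsin, 80.8 with tamoxifen and 46.8 in untreated cells, at or near the floor throughout. Of its 5 probe sets none was above the floor on all 4 arrays and 3 were below it on every array, so its folds rest on signals at the floor. HRK is nonetheless 1 of the 9 measured members in the counts and medians.

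**Figure D2:**
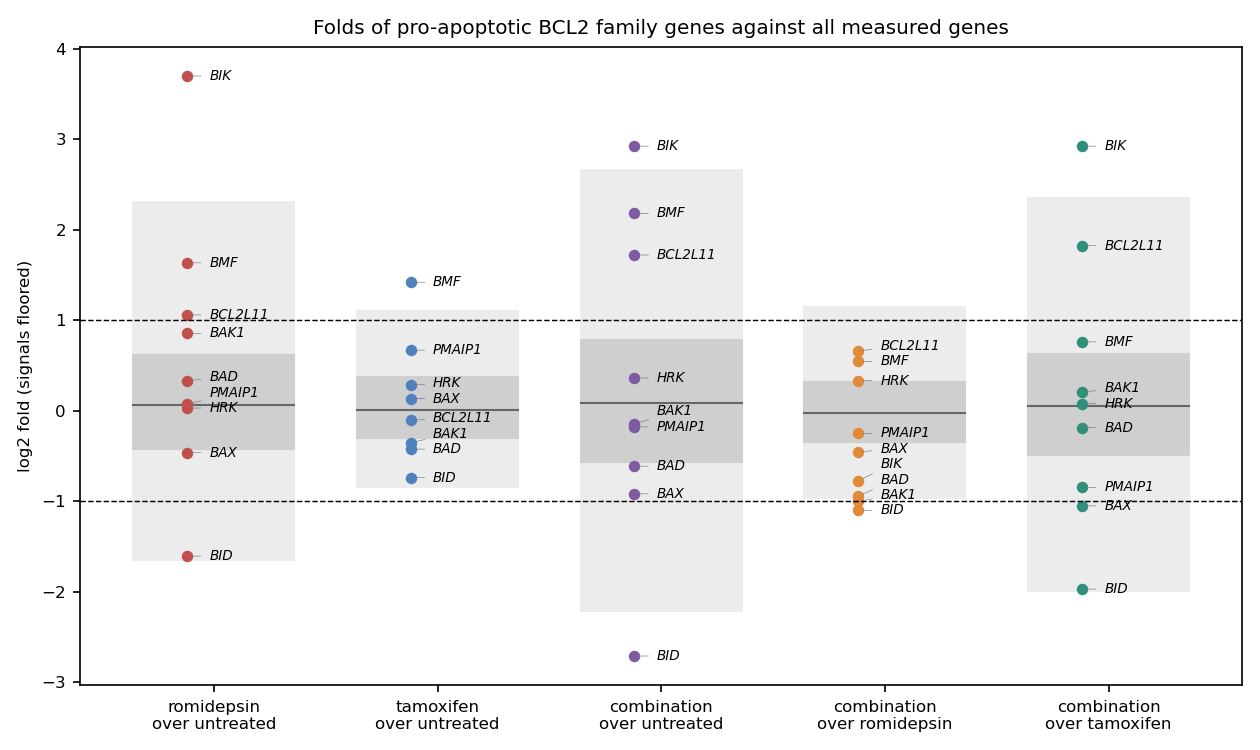
Log2 folds of the members (points) in the 5 comparisons, over the central 50% (dark grey) and the central 95% (light grey) of all measured genes, with the median as a line and 2-fold as dashed lines. BIK lay above the central 95% in 3 comparisons, BMF in tamoxifen over untreated cells, BID below it in the combination over untreated cells, and BID and BAK1 below it in the combination over romidepsin. The BIK and BMF values named here are bounds set by the floor.

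Adding tamoxifen to romidepsin was not accompanied by a rise of any member. BID and BAK1 fell, 2 of 9, against 2.27% of 13726 genes that fell and 4.07% that rose. Of the 9 members 6 were lower and 3 (BCL2L11, BMF and HRK, the last near the floor) higher than with romidepsin alone, and their median log2 fold was -0.46, beside -0.031 for all genes. BAK1 lay at the threshold, and the BID call rests on 1 of 3 probe sets. The spike-in controls read 0.82 times as high with the combination, 1.01 times with romidepsin and 0.78 times with tamoxifen as in untreated cells. They are 18 control probe sets (BioB, BioC, BioD and Cre) and were not taken as a measure of RNA per cell. With the arrays scaled to them, neither BAK1 nor BID passed 2-fold, PMAIP1 turned positive, and 9.63% of all genes rose and 0.648% fell. Adding romidepsin to tamoxifen was accompanied by a rise of BIK and a 3.54-fold rise of BCL2L11, and by a fall of BID and BAX. For BCL2L11 all 5 probe sets above the floor on both arrays were positive, between 0.13 and 1.82, 2 of them passed 2-fold, and the median over its probe sets was 0.13. The calls are 2 of 9 members each way, against 14.8% of 13893 genes that rose and 11.8% that fell. BIK was below the floor with tamoxifen, so it could only be higher. The members' median was 0.078, beside 0.054 for all genes, and this middle value is the fold of HRK, a gene near the floor.

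The 6 members above the floor on all 4 arrays (BAX, BAK1, PMAIP1, BCL2L11, BID and BAD) allow the combination to be set against the sum of both single-drug log2 folds. The departure, observed minus summed, was -0.92 for PMAIP1. It was -0.65 for BAK1, -0.59 for BAX, -0.52 for BAD and -0.36 for BID, and 0.77 for BCL2L11. None of the 6 departed by 1 or more, against 0.886% of 11058 genes with such a positive departure and 2.23% with such a negative one. The central 95% of all genes lay between -0.97 and 0.76, so that BCL2L11 was just outside it and PMAIP1 just inside. Both PMAIP1 probe sets (-0.92 and -0.90) and both BAX probe sets (-0.59 and -0.69) had similar values. The other BCL2L11 sets ranged from -0.17 to 0.495, the BID sets disagreed in sign, and so did those of BAD.

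**Figure D3:**
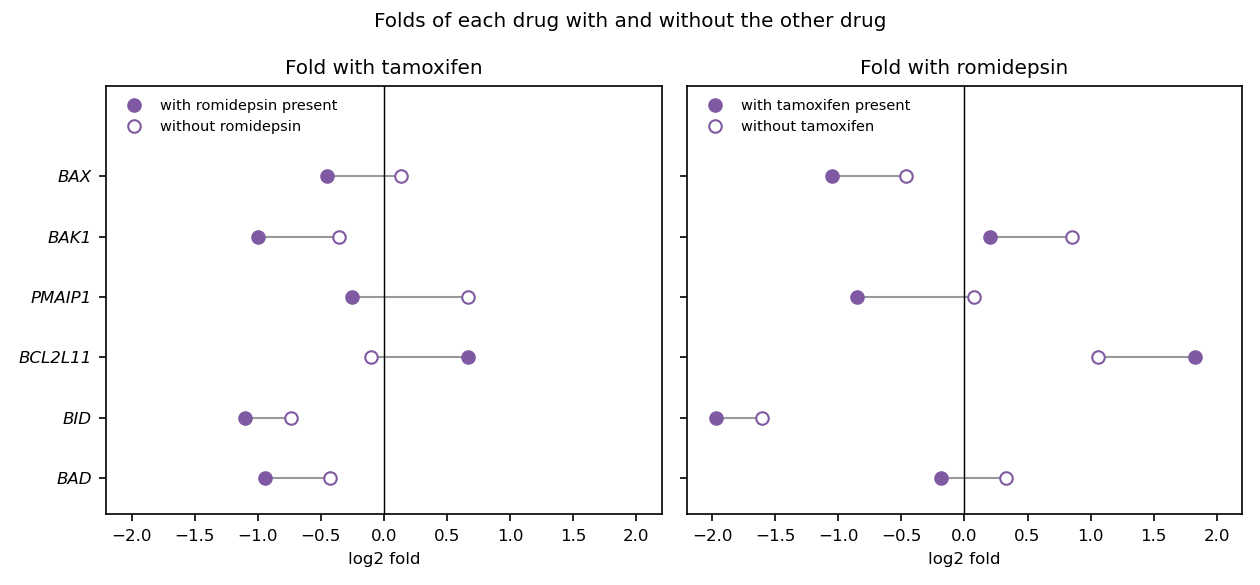
Log2 fold with tamoxifen (left) and with romidepsin (right) for the 6 members above the floor on all 4 arrays, with the other drug present (filled) and without it (open). The line between the points is the departure from the sum, 0.77 for BCL2L11 and -0.92 for PMAIP1; of these members only BCL2L11 moves to the right.

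The genes of the proteins that the members bind were measured on the same arrays. Of 6 listed anti-apoptotic partners 5 were measured. With the combination 2 of them fell and none rose, and their median log2 fold was -0.97, beside 0.089 for all genes, of which 14.4% fell and 19.8% rose. With romidepsin 2 fell and none rose, against 9.27% and 14.3% of all genes. BCL2L1, which encodes BCL-XL, read 892 with the combination, 1259 with romidepsin, 2844 with tamoxifen and 3435 in untreated cells, 3.85-fold lower with the combination than in untreated cells. BCL2A1, which encodes BFL1, read 87.8, 152, 1121 and 1197 on the same 4 arrays and fell 13.6-fold with the combination. All 4 BCL2L1 probe sets had the same sign in each comparison with untreated cells. MCL1, the main partner of NOXA, lay between 6953 and 8112 on the 4 arrays, and BCL2 between 86.3 and 105, close to the floor. BCL2L2 was 1.96-fold lower with the combination than in untreated cells, and BCL2L10 stayed under the floor. With tamoxifen 0 of the 5 rose or fell, with a median of -0.10. The members' own medians were 0.33 with romidepsin and -0.15 with the combination, while those of the anti-apoptotic partners were -0.95 and -0.97. These are folds of single genes. Both partner medians are the folds of BCL2L2, and 1 of its 2 probe sets had that sign with romidepsin and 2 with the combination. The members' medians are the folds of BAD with romidepsin, where its second set gave -0.083, and of BAK1 with the combination.

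Of 12 other BCL2 homologues and BH3-like genes 10 were measured; 1 rose and 0 fell with romidepsin, none moved with tamoxifen, and 2 rose and 3 fell with the combination. The shares of all genes that rose and fell were 14.3% and 9.27% with romidepsin, 3.7% and 1.07% with tamoxifen and 19.8% and 14.4% with the combination, so 2 of 10 rises with the combination is near the background. MOAP1, which encodes an adaptor that binds BAX, read 3752 with the combination, 2352 with romidepsin, 755 with tamoxifen and 708 in untreated cells, and rose 5.3-fold with the combination and 3.32-fold with romidepsin. BNIP2 was 2.13-fold higher with the combination than in untreated cells. BOK, a BAX-like effector, fell 3.42-fold with the combination, BCL2L12 2.62-fold and BNIP1 2.4-fold. The medians of this list were -0.14 with romidepsin, -0.006 with tamoxifen and 0.15 with the combination. Of 11 genes that act after the mitochondrion opens 9 were measured, and 0 rose or fell with either drug alone. With the combination APAF1, the scaffold of the apoptosome, rose 2.09-fold and the initiator caspase gene CASP9 rose 2.06-fold, while ENDOG fell 2.23-fold. Genes of the lists other than the members were read with the deposited scaling only. A fold this near 2 can cross it with the scaling, as that of BAX did with the combination. CYCS, which encodes cytochrome c, lay between 27237 and 30779 throughout. XIAP, the caspase inhibitor, was 2.04-fold lower with the combination than with tamoxifen alone and 1.44-fold lower than in untreated cells.

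**Figure D4:**
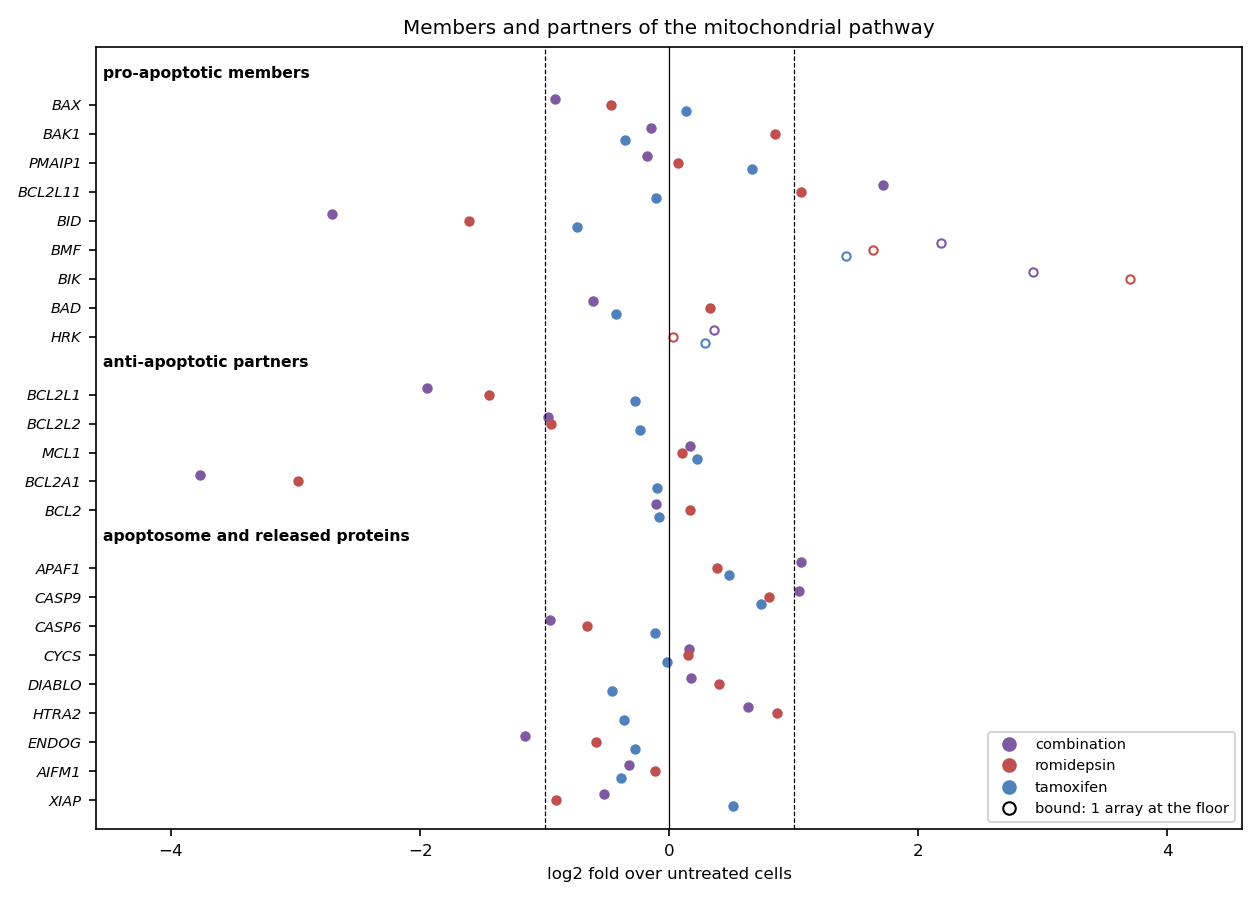
Log2 fold over untreated cells for the members, the anti-apoptotic partners and the genes of the apoptosome and released proteins, with combination, romidepsin and tamoxifen as colours and open points for bounds. BCL2A1 and BCL2L1 lie furthest left among the partners, at -3.77 and -1.95 with the combination, while MCL1 lies near 0.

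Among 17 genes whose products act on member proteins 16 were measured; 1 rose and 1 fell with romidepsin, none moved with tamoxifen, and 3 rose and 3 fell with the combination, near the 19.8% and 14.4% of all genes. CASP8, whose product cleaves BID, read 574 with the combination, 694 with romidepsin, 1202 with tamoxifen and 1191 in untreated cells, a fall of 2.07-fold with the combination. DYNLL2, the dynein light chain that holds BMF, rose 2.73-fold with romidepsin and 2.61-fold with the combination. DYNLL1, the chain that holds BIM, passed 2-fold in no comparison. Of the 14-3-3 genes, whose products keep phosphorylated BAD in the cytosol, YWHAH fell 2.09-fold with romidepsin and 3.07-fold with the combination, and YWHAE 2.07-fold with the combination, while YWHAB, YWHAG, YWHAQ and YWHAZ passed 2-fold in none of the 5 comparisons. FBXW7 rose 3.45-fold and USP9X, a deubiquitinase that stabilizes MCL1, 2.39-fold with the combination. The median of this list was -0.34 with the combination.

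Of 18 listed transcription factors known to act on member genes 16 were measured with romidepsin, and 2 rose and 5 fell, while 1 rose and 0 fell with tamoxifen and 3 rose and 5 fell with the combination. Of all genes 14.3% rose and 9.27% fell with romidepsin, 3.7% rose and 1.07% fell with tamoxifen, and 19.8% rose and 14.4% fell with the combination. FOXO4, of the FOXO family that drives BIM transcription, rose at least 4.36-fold with romidepsin, and FOXO3 was 1.35-fold higher with romidepsin and 1.77-fold higher with the combination. E2F1, E2F2 and E2F3 fell 2.67-fold, 2.42-fold and 2.92-fold with romidepsin. MYC fell 3.12-fold and NFKB1 2.76-fold with romidepsin. SNAI2, which encodes the repressor SLUG, known to act on BBC3, rose 2.58-fold. DDIT3, which encodes CHOP, a stress-induced factor known to act on BIM, read 2930.4 with the combination, 796 with romidepsin, 1722 with tamoxifen and 633 in untreated cells, a rise of 4.63-fold with the combination and 2.72-fold with tamoxifen. DDIT3 and the brightest BCL2L11 set were both highest with the combination, while the next brightest BCL2L11 set was highest with romidepsin, at 1002. With tamoxifen alone DDIT3 rose and BCL2L11 did not. A link between these genes was not tested.

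Promoter sequence from 250 bases before to 50 after the gene start was found for 9 of the 10 members in RefSeq (GRCh38.p14), in 15 windows. The first listed windows of BCL2L11, BMF and BID are printed 5′ to 3′, because BCL2L11 and BMF rose with romidepsin and BID fell. Capitals mark the GC box GGGCGG on either strand, the letters bound by SP1-type factors.
BCL2L11, chr2:111120664-111120963, plus strand: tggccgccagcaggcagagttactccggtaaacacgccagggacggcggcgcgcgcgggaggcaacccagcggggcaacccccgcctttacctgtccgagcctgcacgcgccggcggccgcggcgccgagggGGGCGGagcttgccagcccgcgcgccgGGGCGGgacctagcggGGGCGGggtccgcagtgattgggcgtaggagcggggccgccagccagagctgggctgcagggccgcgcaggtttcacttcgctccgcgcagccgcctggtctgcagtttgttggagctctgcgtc
BMF, chr15:40108830-40109129, minus strand: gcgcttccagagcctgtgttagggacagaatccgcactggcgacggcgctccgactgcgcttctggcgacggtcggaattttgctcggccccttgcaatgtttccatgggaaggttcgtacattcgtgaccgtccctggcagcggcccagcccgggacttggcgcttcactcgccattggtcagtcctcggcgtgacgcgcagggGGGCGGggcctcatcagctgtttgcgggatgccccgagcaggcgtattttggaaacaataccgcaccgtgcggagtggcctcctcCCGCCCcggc
BID, chr22:17774420-17774719, minus strand: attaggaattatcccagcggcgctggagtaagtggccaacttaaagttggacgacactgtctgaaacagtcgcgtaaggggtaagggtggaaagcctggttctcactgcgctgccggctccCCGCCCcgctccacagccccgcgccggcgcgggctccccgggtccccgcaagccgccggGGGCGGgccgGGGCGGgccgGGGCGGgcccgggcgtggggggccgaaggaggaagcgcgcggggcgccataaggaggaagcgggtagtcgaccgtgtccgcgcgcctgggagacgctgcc
The GC box stood 3 times in the BCL2L11 window, 2 times in that of BMF and 4 times in that of BID, and 8 of the 9 members with a window had it in their first one. BIK had no window, and among first windows only that of BBC3 had no GC box. Window 3 of the 5 BID windows had none either. The GC box was found in 44.9% of 34943 promoter windows of the same length. SP1 itself read 1005.5 with the combination, 961 with romidepsin, 1875 with tamoxifen and 1909 in untreated cells, 1.99-fold lower with romidepsin and so just under the threshold. The 3 printed windows held 39, 31 and 37 CpG pairs, against a median of 14 in all windows. The other first windows held 42 for PMAIP1, 38 for BAX, 25 for HRK, 21 for BAD, 7 for BAK1 and 5 for BBC3. The FOXO core GTAAACA, searched on both strands, stood once in the BCL2L11 window and in no other member window, and 3.42% of all windows have it. The E2F letters TTTGGCGC or TTTCGCGC, on either strand, were in no member window, and in 1.14% of all windows. The E-box CACGTG stood 4 times in the BAX window and once each in the BBC3 window and in 2 of the 5 BID windows, and 7.23% of all windows have it. Those BID windows overlap and share the same match. A match of letters is a description of the sequence and not a site. BID has 5 annotated starts and BMF 2, and the second BMF window held 1 CpG pair and no GC box.

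The genes most like a member over the 3 treated arrays were found by the root mean square difference of log2 folds over untreated cells, among 11052 genes above the floor on all 4 arrays, for the 3 members with the widest range that were above the floor in untreated cells. Those most like BID were CCNB1, which encodes cyclin B1, RCC1 and RANBP1, at 0.051 to 0.083. CCNB1 had log2 folds of -2.67 with the combination, -1.59 with romidepsin and -0.66 with tamoxifen, beside -2.71, -1.61 and -0.74 for BID. Those most like BCL2L11 were MRFAP1L2, KLHL20 and TNFRSF10D, a decoy receptor for TRAIL, at 0.097 to 0.112. The BCL2L11 match rests on its brightest probe set, the only one that passed 2-fold over untreated cells. Those most like BAK1 were HES4, CRACR2B and DLG3, at 0.089 to 0.092. Likeness over 3 folds that share the untreated array is a description, and 42 genes lay within 0.25 of BID, 74 of BCL2L11 and 89 of BAK1.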

How the data were processed

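The arrays were hybridized with biotinylated cRNA made from total RNA by a 3′ IVT kit (per the labels' labelling protocol). The authors deposited linear intensities, 1 for each probe set, from MAS5, per the submitters' processing notes, which name no version. The mean of the deposited signals with 2% trimmed at each end was 500.1 on all 4 arrays, so arrays were scaled as if most signal were equal. Scanner files were not used, and the number of arrays limits the precision. Columns of other samples numbered 0.

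Of 54675 probe sets 62 are controls, 41091 name 1 gene in the platform annotation, 1801 several and 11721 none. Symbols were checked by Entrez ID against RefSeq (GRCh38.p14): 41037 probe sets had a match and 0 symbols changed. For each gene the probe set of highest mean log2 signal was used, and every member probe set was also read. The floor is the median of all non-control signals, 66.4. Genes with at least 1 array of a comparison above it count as measured there, so a gene at the floor on 1 array can differ in 1 direction only. Each of the 3 treatments was set against untreated cells, and the combination also against each drug, 5 comparisons in all. No test was made.

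The members and lists were chosen with earlier results of these data known. All members are named, and of other lists those that rose or fell and up to 4 others; 4 of 64 other listed genes had no usable probe set and were not analysed here. Alternatives were the floor, the scaling, the fold, the probe sets and their summary. The steps were tested on simulated data. Python 3.11.15 was used with numpy 2.4.6, pandas 2.3.3 and matplotlib 3.10.9.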

Additional observations from a re-analysis of the deposited data

Results flagged for a closer look

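Some members had folds of opposite sign for 1 drug without and with the other, which was not tested, with 1 array a condition. For tamoxifen, BAX had a log2 fold of -0.46 in the combination over romidepsin and 0.13 in tamoxifen over untreated cells, PMAIP1 had -0.25 and 0.67, and BCL2L11 had 0.66 and -0.10. For romidepsin, PMAIP1 had a log2 fold of -0.85 in the combination over tamoxifen and 0.072 in romidepsin over untreated cells, and BAD had -0.19 and 0.33. None of these 10 values reached 2-fold. Those of BAX, PMAIP1 and BCL2L11 for tamoxifen and of PMAIP1 for romidepsin changed sign on at least 1 side with the scaling of the arrays: BAX lay between -0.016 and 0.49 and BCL2L11 between -0.25 and 0.25 in tamoxifen over untreated cells, and PMAIP1 between -0.36 and 0.055 in the combination over romidepsin and between -0.12 and 0.072 in romidepsin over untreated cells. Both values of BAD kept their signs with the scaling but not across probe sets. Its second set above the floor gave 0.18 in the combination over tamoxifen and -0.083 in romidepsin over untreated cells.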

How the results depend on the processing

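No fold of 2 or more changed sign under any of the alternatives. BID stayed 2-fold or more lower in the combination over untreated cells and over tamoxifen and in romidepsin over untreated cells under all 7 alternatives of floor, scaling and probe sets. The shares of all genes moved with the settings too. At 1.5-fold 26.0% of all genes rose and 19.3% fell with romidepsin, 14.7% and 8.82% with tamoxifen, and 30.9% and 24.6% with the combination. For the combination over romidepsin these were 13.5% and 11.4%, and over tamoxifen 26.3% and 21.9%. At 3-fold the shares in that order were 6.54% and 2.97%, 0.306% and 0.0843%, 9.96% and 6.22%, 0.401% and 0.291%, and 6.6% and 4.77%. Counts of members moved as follows. With romidepsin 3 rose, but 2 with the median over probe sets, with the floor at the 75th percentile, with arrays centred or quantile normalized and at 3-fold, and 4 at 1.5-fold; 1 fell throughout. Members that rose with tamoxifen numbered 1, but 2 with the floor at the 25th percentile, with spike-in scaling and at 1.5-fold, and 0 with the floor at the 75th percentile and at 3-fold; 0 fell, but 1 at 1.5-fold. In the combination over untreated cells 3 rose, but 2 with the median over probe sets and 1 with the floor at the 75th percentile, and 1 fell, but 2 with arrays centred on their medians or quantile normalized and 3 at 1.5-fold. In the combination over romidepsin 0 rose, but 1 at 1.5-fold, and 2 fell, but 1 with the median over probe sets, with the floor at the 75th percentile and without probe sets that can match several transcripts, 0 with spike-in scaling and at 3-fold, 3 with arrays centred or quantile normalized, and 4 at 1.5-fold. In the combination over tamoxifen 2 rose, but 1 with the median over probe sets and with the floor at the 75th percentile and 3 at 1.5-fold, and 2 fell, but 1 with the floor at the 75th percentile, without probe sets that can match several transcripts and at 3-fold, and 3 at 1.5-fold. BCL2L11 did not pass 2-fold with romidepsin when arrays were centred or quantile normalized, and with the median over its probe sets its log2 fold was 0.30 with romidepsin, 0.36 with the combination and 0.13 in the combination over tamoxifen. The bound for BIK with romidepsin moved with the floor, from a log2 fold of 1.08 at the 75th percentile to 5.43 at the 25th. The floor at the 25th percentile gave 8.33% of all genes that rose and 4.24% that fell with tamoxifen. With the floor at the 75th percentile 7 members were measured, but 6 with tamoxifen. The shares there were 9.1% and 9.46% with romidepsin, 2.35% and 0.699% with tamoxifen, and 15.8% and 15.3% with the combination. For the combination over romidepsin they were 3.09% and 1.52%, and over tamoxifen 10.8% and 11.6%. Without probe sets that can match several transcripts 4.53% rose and 1.95% fell in the combination over romidepsin, and 15.1% and 11.2% over tamoxifen. Quantile normalization gave 12.5% and 10.3% with romidepsin, 17.5% and 16.3% with the combination, and 3.82% and 2.7% in the combination over romidepsin. Spike-in scaling moved the median log2 fold of all genes to 0.33 with tamoxifen, 0.34 with the combination and 0.255 in the combination over romidepsin, and centring moved it to -0.13 with tamoxifen, -0.17 with the combination, -0.11 with romidepsin and -0.13 in the combination over romidepsin. In the combination over romidepsin 2.91% of genes then rose and 3.36% fell, with quantile normalization 2.69% rose and 1.53% fell with tamoxifen, and with spike-in scaling 11.5% rose and 0.204% fell with tamoxifen and 25.9% and 9.69% with the combination. No paired analysis was possible because each condition has 1 array. The cause of these moves was not tested.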
